A study of Schizosaccharomyces pombe with 29 samples.

Results

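The genes described here encode 7 proteins that write or erase phosphate marks on the C-terminal domain (CTD) of the largest subunit of RNA polymerase II in fission yeast, Schizosaccharomyces pombe. They are cdk9, pch1, lsk1, lsc1, lsg1, fcp1 and ssu72, found by their common names in the authors' deposited annotation, and make up 7 of the 6986 gene IDs of the count table. Polyadenylated RNA was sequenced from 31 libraries in 10 groups that differ in the CTD of rpb1. In control set 1, the mutants Y1F, S2A and S2A-S7A (3 libraries each) are set against WT29 set 1 (3 libraries). In control set 2, the mutants T4A, ALT-P3A, ALT-S5A and ALT-P6A (3 each) and the shortened WT18 (4) are set against WT29 set 2 (3).

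WT29 carries 29 wild-type repeats, WT18 carries 18, and each mutant carries its named substitution on the 29-repeat background. ALT is kept as the labels write it, since they do not spell it out. The new strains are h+ and carry the NatMX marker beside rpb1, the WT29 controls included. All groups were grown vegetatively in YES medium at 30 °C. T4A and libraries 3 and 4 of WT18 were taken from earlier series and sequenced on other instruments. The earlier WT18 strain is h- with ade6, ura4-D18 and leu1-32 alleles, and its RNA was prepared with another kit. For that pair, mating type, markers and preparation cannot be told apart. All T4A libraries came from an earlier series, while the WT29 controls of both sets were new. In every T4A comparison with WT29 below, the allele therefore cannot be told apart from the series and the instrument.

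As background, the CTD is a long array of heptad repeats whose serines, tyrosine and threonine are phosphorylated and dephosphorylated during each round of transcription. Cdk9 with its cyclin Pch1 forms P-TEFb, which phosphorylates the CTD and the elongation factor Spt5. Lsk1, its cyclin Lsc1 and the accessory subunit Lsg1 form the counterpart of budding yeast CTDK-I, a CTD Ser2 kinase complex that cells can grow without. Fcp1 removes CTD phosphate, mainly from Ser2, and Ssu72 removes it from Ser5 within the cleavage and polyadenylation machinery. S2A, S2A-S7A and ALT-S5A replace Ser2 or Ser5, while the other mutants replace other residues and WT18 replaces none. The question here is what the alleles did to the transcripts of these proteins.

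Library totals ran from 15.2 M to 35.8 M counts, and all 7 genes passed the filter on low counts in every comparison. The lowest count of any of them in any library was 97, for lsg1. Levels below are in CPM, read counts relative to library totals with all libraries scaled together, and folds come from fits of each comparison alone. Per kilobase of exon, the mean over the 10 groups was highest for lsk1, at 30.2 CPM per kb. The other levels per kb were 23.2 for lsc1, 21.1 for fcp1, 20.4 for cdk9, 15.9 for ssu72, 13.6 for pch1 and 11.3 for lsg1. In bulk RNA, fewer cells carrying a transcript and less transcript per cell cannot be told apart.

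**Figure D1:**
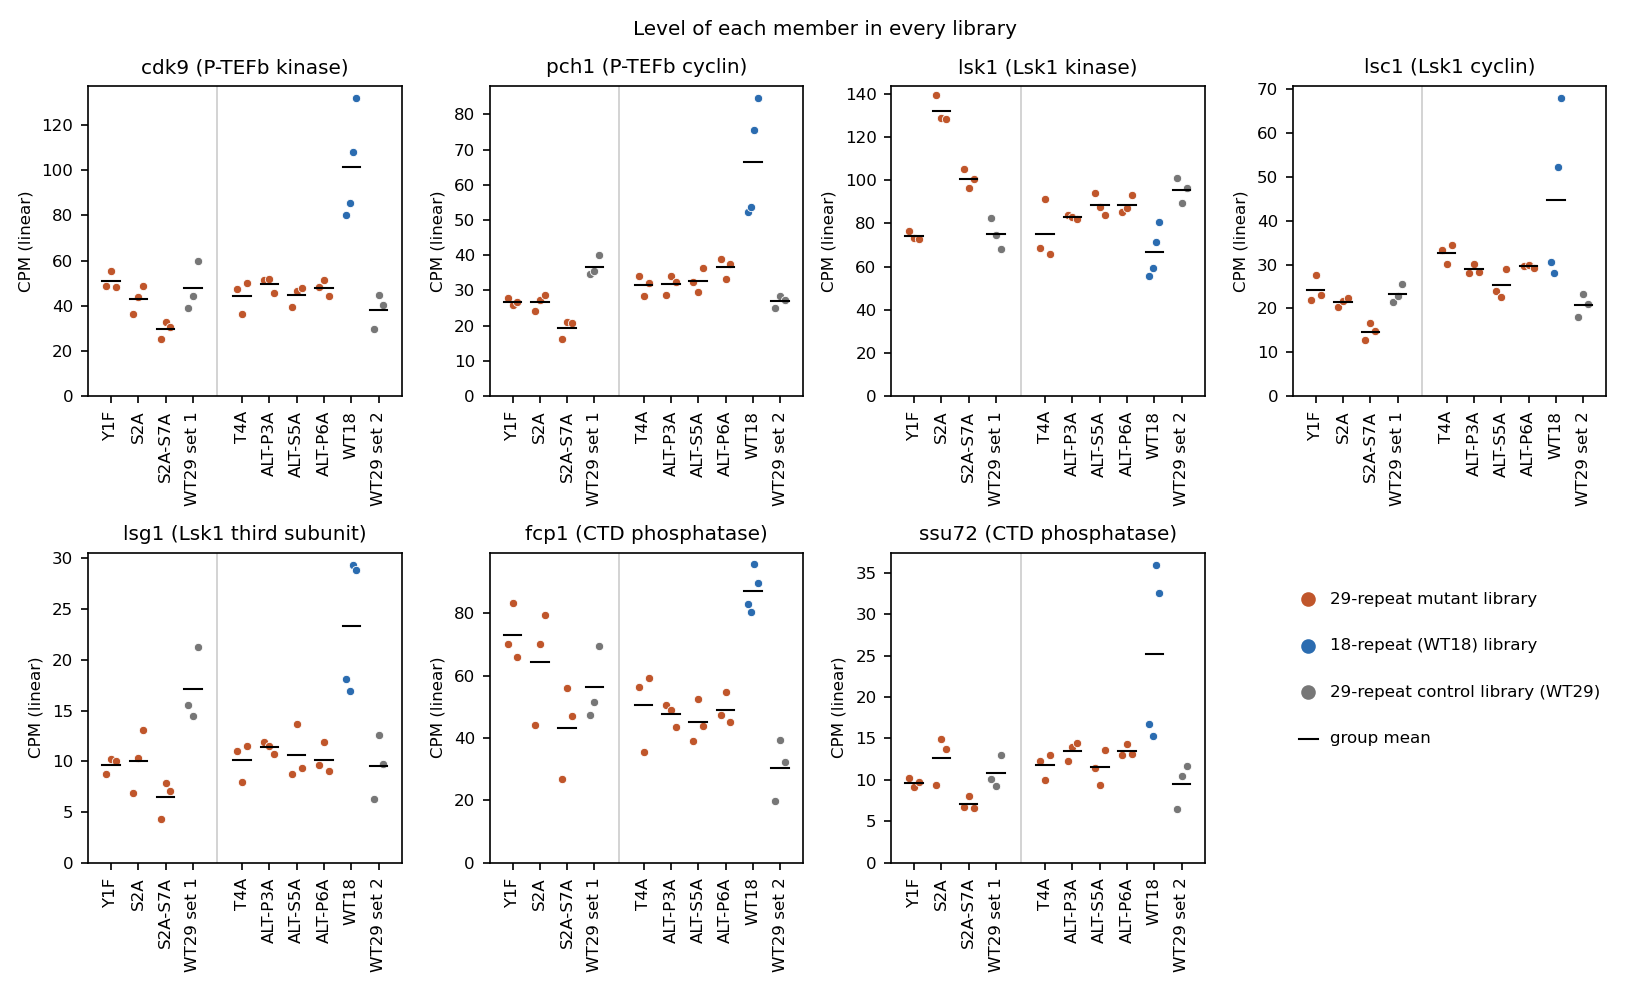
Level of each of the 7 genes in every library, in CPM on a linear axis that starts at 0, with 1 point per library and a line at each group mean. Groups left of the grey line belong to control set 1 and those right of it to control set 2. The 4 WT18 libraries reach the highest levels of 6 genes, with cdk9 at up to 132 CPM, whereas lsk1 is highest in S2A at 139.5 CPM and lowest in WT18 at 55.9 CPM.

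Shortening the CTD went with the widest shift: in WT18, 6 of the 7 transcripts rose and lsk1 fell. Over all genes tested in WT18, 35.8% rose and 33.8% fell. With all WT18 libraries together, the 6 that rose did so by at least 2-fold over WT29 set 2, against a background of 24.8% of genes. With the new WT18 pair alone, lsc1, ssu72 and lsg1 stayed under 2-fold, at log2 fold changes of 0.56, 0.81 and 0.93. Over WT29 set 1, again with all WT18 libraries, the log2 fold changes of the 6 were smaller. Only cdk9 at 1.05 and ssu72 at 1.18 stayed above 2-fold. The others were 0.90 for lsc1, 0.82 for pch1, 0.60 for fcp1 and 0.41 for lsg1, of which lsg1 did not pass. The median log2 fold change of the 7 genes was 1.33 in WT18, and that of all genes 0.05. In S2A-S7A the picture was turned round: lsk1 rose and 5 genes fell, on a background of 29.4% of genes rising and 31.1% falling. The list's median in S2A-S7A was -0.66, against -0.03 over all genes. Only lsg1 fell by at least 2-fold there, as did 9.61% of genes. Over WT29 set 2 only the falls of pch1 and lsc1 passed in S2A-S7A. A call means an adjusted p under 0.05 by edgeR's quasi-likelihood test with Benjamini-Hochberg adjustment over all genes tested.

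The other alleles moved fewer of the genes. In Y1F 1 gene rose and 2 fell, on backgrounds of 23.6% and 27.6%. In S2A 1 gene also rose and 2 fell, on backgrounds of 18.2% and 17.5%. In T4A 1 gene rose and 1 fell, with backgrounds of 18.4% and 22.4%, and in ALT-P3A 2 rose and 1 fell, with 21.8% and 21%. In ALT-P6A 3 genes rose and 0 fell, where 22.1% of genes rose and 23.3% fell. In ALT-S5A the edgeR test called 0 of the 7, while 14.9% of genes rose and 18.1% fell. There, 1 of the 7 had an unadjusted p under 0.05 and DESeq2 called 1, in each case fcp1. In the 5 of these alleles with calls, the share of the 7 genes called was near that of all genes, so the counts show nothing particular to them.

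**Figure D2:**
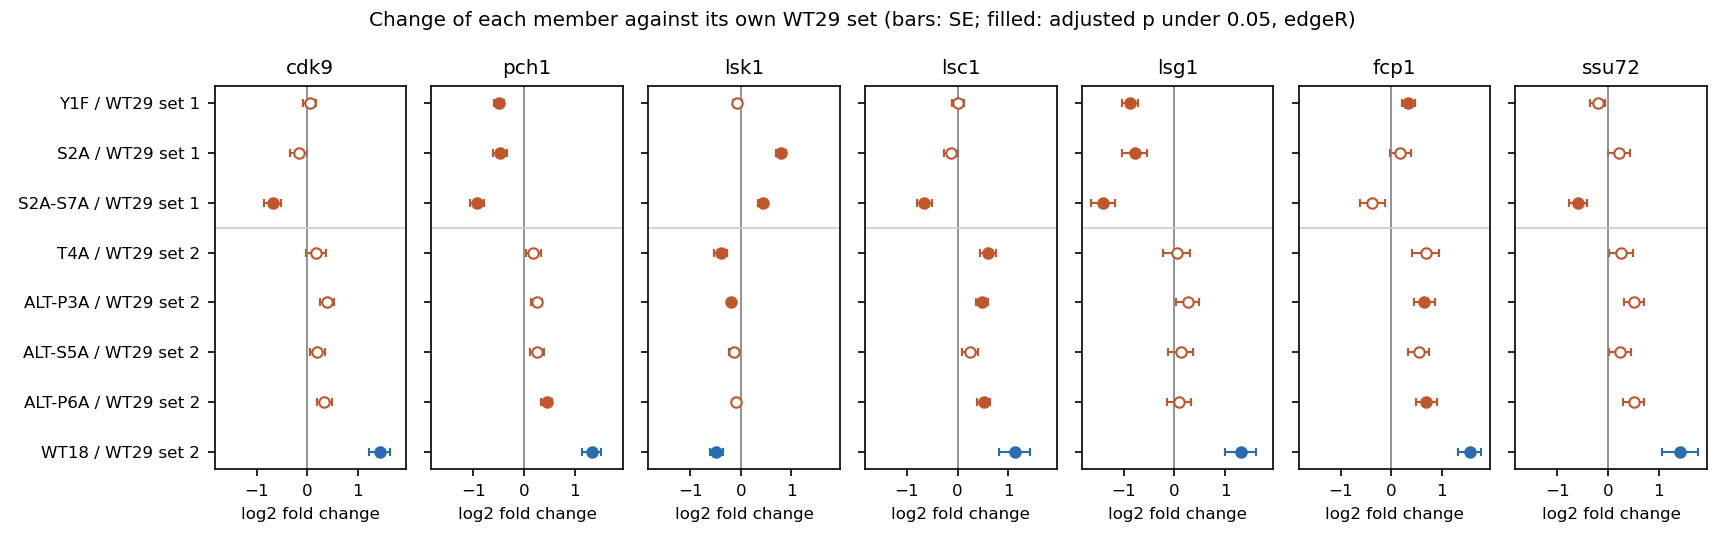
Log2 fold change of each gene in each allele over its own WT29 set, with bars of 1 standard error. Filled symbols have an adjusted p under 0.05 in edgeR's quasi-likelihood test. The WT18 values, from its new and earlier libraries together, lie above 1 for every gene but lsk1, at -0.48. The lowest value is that of lsg1 in S2A-S7A, at -1.41.

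Both P-TEFb transcripts rose in WT18 and fell in S2A-S7A, each against its own control set. Of these calls, only the fall of cdk9 did not pass against the other set. The kinase transcript cdk9 stood at 80.1, 85.3, 108 and 132 CPM in WT18, against 29.7, 44.9 and 40.2 CPM in WT29 set 2. Every WT18 library lay above every control library, and the log2 fold change was 1.43 ± 0.21 (here and below ± is the standard error for fold changes; edgeR adjusted p = 0.00068). In S2A-S7A, cdk9 was at 25.3, 33.0 and 30.5 CPM, against 39.1, 44.1 and 59.8 CPM in WT29 set 1. These groups did not overlap either, and cdk9 fell by 0.68 ± 0.17 on the log2 scale (edgeR adjusted p = 0.0085). In the other 6 alleles cdk9 had log2 fold changes between -0.17 in S2A and 0.39 in ALT-P3A, none of which passed. The ALT-P3A value had an edgeR adjusted p of 0.052 and passed with DESeq2 at 0.024.

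The cyclin transcript pch1 fell in all 3 alleles of control set 1. It was at 27.9, 25.9 and 26.8 CPM in Y1F, against 34.5, 35.5 and 40.0 CPM in WT29 set 1, a log2 fold change of -0.50 ± 0.10 (edgeR adjusted p = 0.0011). In S2A it was at 24.1, 27.4 and 28.7 CPM, with a log2 fold change of -0.48 ± 0.13 (edgeR adjusted p = 0.018). In S2A-S7A it reached 16.2, 20.9 and 20.8 CPM, with a log2 fold change of -0.92 ± 0.14 (edgeR adjusted p = 0.00067). No mutant library of these 3 alleles reached the lowest library of WT29 set 1, the controls that all 3 share. The S2A call was lost without S2A library 2 and without WT29 set 1 library 2 or 3, at edgeR adjusted p between 0.052 and 0.065.

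Against control set 2, pch1 behaved differently. It rose in WT18, at 52.3, 53.8, 75.5 and 84.6 CPM, against 25.1, 28.5 and 27.2 CPM in WT29 set 2 (log2 fold change 1.33 ± 0.18, edgeR adjusted p = 0.00052). In ALT-P6A it was at 38.8, 33.3 and 37.6 CPM, all above those controls, and rose by 0.45 ± 0.11 (edgeR adjusted p = 0.0084). Without ALT-P6A library 1 the adjusted p was 0.062. In T4A, ALT-P3A and ALT-S5A every library also lay above WT29 set 2, but the log2 fold changes of 0.18, 0.25 and 0.25 did not pass.

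The Ser2 kinase transcript lsk1 rose in S2A and S2A-S7A and fell in WT18, T4A and ALT-P3A, each against its own control set, and of these only the S2A call also passed against the other set. In S2A it stood at 139.5, 129 and 128 CPM, against 82.5, 74.7 and 68.2 CPM in WT29 set 1. That rise of 0.80 ± 0.10 on the log2 scale had an edgeR adjusted p of 0.00015 and is the largest change of lsk1 in the 8 alleles. In S2A-S7A the levels were 105, 96.6 and 101 CPM, a rise of 0.43 ± 0.09 (edgeR adjusted p = 0.0029). In Y1F lsk1 was at 76.3, 73.4 and 72.6 CPM, within the control range, and its log2 fold change of -0.07 did not pass.

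In control set 2 lsk1 was lower or did not pass. WT18 had 55.9, 59.4, 71.5 and 80.8 CPM, all below the 101, 89.3 and 96.3 CPM of WT29 set 2, and lsk1 fell by 0.48 ± 0.13 (edgeR adjusted p = 0.011). In T4A it was at 68.7, 91.4 and 65.9 CPM and fell by 0.40 ± 0.12 (edgeR adjusted p = 0.026), although T4A library 2 overlapped the controls. In ALT-P3A, at 83.7, 83.1 and 82.2 CPM, it fell by 0.19 ± 0.06 (edgeR adjusted p = 0.038). The T4A call was lost without T4A library 1 or 3 or WT29 set 2 library 4 or 6, at adjusted p between 0.08 and 0.12. The ALT-P3A call was lost without any single ALT-P3A library and without WT29 set 2 library 4 or 6, at adjusted p between 0.086 and 0.18. With DESeq2 the adjusted p was 0.061 in T4A and 0.063 in ALT-P3A, and with all groups of control set 2 fitted together 0.053 and 0.39.

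The cyclin partner lsc1 rose in 3 substitution alleles of control set 2 and in WT18. It was at 33.3, 30.2 and 34.5 CPM in T4A, against 18.2, 23.3 and 21.1 CPM in WT29 set 2 (log2 fold change 0.60 ± 0.16, edgeR adjusted p = 0.015). In ALT-P3A it was at 28.1, 30.2 and 28.4 CPM, with a log2 fold change of 0.48 ± 0.13 (edgeR adjusted p = 0.016). In ALT-P6A it was at 29.7, 29.8 and 29.2 CPM, with a log2 fold change of 0.51 ± 0.12 (edgeR adjusted p = 0.0087). These libraries all lay above the control libraries, which the 3 alleles share. The T4A call was lost without T4A library 1 or WT29 set 2 library 4 or 6, at adjusted p between 0.05 and 0.063, and the ALT-P3A call without ALT-P3A library 1 or WT29 set 2 library 6, at 0.059 and 0.056. In ALT-S5A the libraries, at 24.1, 22.7 and 29.0 CPM, overlapped the controls, and the log2 fold change of 0.25 ± 0.15 did not pass. With all groups of control set 2 fitted together, the adjusted p of lsc1 was 0.16 in ALT-P3A and 0.12 in ALT-P6A.

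In WT18, lsc1 was at 30.5, 28.2, 52.3 and 67.9 CPM and rose by 1.12 ± 0.31 (edgeR adjusted p = 0.011, and 0.05 without WT29 set 2 library 4). In S2A-S7A it was at 12.8, 16.6 and 14.8 CPM, below the 21.5, 22.9 and 25.6 CPM of WT29 set 1. That was a fall by 0.66 ± 0.15 on the log2 scale (edgeR adjusted p = 0.0047). The Y1F and S2A libraries overlapped those controls, with log2 fold changes of 0.01 and -0.14 that did not pass.

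The accessory subunit lsg1, the lowest of the 7 per kilobase, fell in all 3 alleles of control set 1. Y1F had 8.72, 10.2 and 10.03 CPM, against 15.6, 14.5 and 21.3 CPM in WT29 set 1, and lsg1 fell by 0.87 ± 0.16 (edgeR adjusted p = 0.00043). S2A-S7A had 4.33, 7.88 and 7.09 CPM, with a log2 fold change of -1.41 ± 0.24 (edgeR adjusted p = 0.0015). S2A had 6.85, 10.3 and 13.1 CPM, with a log2 fold change of -0.78 ± 0.24 (edgeR adjusted p = 0.029). All mutant libraries lay below the shared controls. The S2A call was lost without S2A library 1 or 2 or WT29 set 1 library 1 or 3, at adjusted p between 0.06 and 0.097.

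In the 4 substitution alleles of control set 2 lsg1 ranged from 7.94 to 13.7 CPM over the 12 libraries, against 6.28, 12.6 and 9.75 CPM in WT29 set 2. The log2 fold changes lay between 0.04 in T4A and 0.26 in ALT-P3A, and none passed. In WT18 lsg1 was at 18.1, 16.9, 29.3 and 28.8 CPM and rose by 1.31 ± 0.30 (edgeR adjusted p = 0.0054). In the ASM294v3 annotation, all 1048 nt of lsg1 lie opposite mrpl12, a mitochondrial ribosomal protein gene. The transcript of mrpl12 rose in all 8 alleles, by 0.57 in Y1F, 0.73 in S2A, 0.71 in S2A-S7A, 0.71 in T4A and 0.26 to 0.48 in the others on the log2 scale. The libraries came from a stranded kit, but whether the authors counted by strand is not given in the sources used here. Without that setting, reads of such opposed genes cannot be told apart. The same holds for pch1, of whose 2637 nt span 2218 nt lie opposite SPBC32F12.07c, and lsc1, of whose 1526 nt span 1066 nt lie opposite dsk1, a protein kinase gene. SPBC32F12.07c rose by 0.35 in S2A-S7A and fell by 0.67 in WT18, and dsk1 passed only in Y1F of the 8 alleles, at -0.32. Annotated non-coding RNAs that were not counted lie opposite parts of cdk9, lsk1 and fcp1 and all 835 nt of ssu72. Without the strand setting, reads of these RNAs cannot be told apart from those of the genes opposite them either.

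Of the phosphatase transcripts, fcp1 rose in WT18, ALT-P3A, ALT-P6A and Y1F. In WT18 it stood at 83.1, 80.5, 95.8 and 89.7 CPM, against 19.7, 39.3 and 32.5 CPM in WT29 set 2, a log2 fold change of 1.55 ± 0.23 (edgeR adjusted p = 0.00067). In ALT-P3A it was at 50.5, 49.1 and 43.6 CPM and rose by 0.65 ± 0.21 (edgeR adjusted p = 0.031). In ALT-P6A it was at 47.3, 54.9 and 45.1 CPM and rose by 0.69 ± 0.21 (edgeR adjusted p = 0.026). Both alleles lay wholly above WT29 set 2, while T4A at 35.7 to 59.4 CPM and ALT-S5A at 39.2 to 52.6 CPM overlapped it and did not pass. Their log2 fold changes were 0.69 ± 0.27 and 0.54 ± 0.20, close to those that passed, and T4A passed with DESeq2 at an adjusted p of 0.014. WT29 set 2 had the lowest fcp1 mean of the 10 groups, 30.5 ± 9.96 CPM (SD, n = 3). The ALT-P3A call was lost without ALT-P3A library 1 or WT29 set 2 library 6, at adjusted p of 0.093 and 0.079, and the ALT-P6A call without WT29 set 2 library 6, at 0.063.

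Against control set 1, fcp1 rose in Y1F only, at 70.2, 83.4 and 65.9 CPM, against 47.5, 51.6 and 69.7 CPM in WT29 set 1 (log2 fold change 0.34 ± 0.13, edgeR adjusted p = 0.045). The groups overlapped, and without Y1F library 1 or 2 or WT29 set 1 library 1 or 2 the adjusted p was between 0.058 and 0.28. It was 0.24 with all groups of control set 1 fitted together. In S2A the 3 libraries were at 44.1, 70.1 and 79.5 CPM and in S2A-S7A at 26.9, 56.0 and 47.2 CPM. Both overlapped the controls, with log2 fold changes of 0.18 ± 0.20 and -0.37 ± 0.24 that did not pass. Fcp1's gene shares 90 nt with the opposite gene rps3001. It also lies opposite the non-coding RNAs SPNCRNA.4200 and SPNCRNA.4201, over 276 and 456 nt, which were not counted.

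The Ser5 phosphatase transcript ssu72 changed in 2 alleles, each against its own control set. Only the WT18 call also passed against the other set. WT18 had 16.8, 15.2, 35.97 and 32.6 CPM, against 6.48, 10.4 and 11.7 CPM in WT29 set 2, and ssu72 rose by 1.42 ± 0.36 (edgeR adjusted p = 0.0087). S2A-S7A had 6.69, 8.05 and 6.62 CPM, against 10.1, 9.30 and 13.1 CPM in WT29 set 1, and ssu72 fell by 0.60 ± 0.18 (edgeR adjusted p = 0.019). Neither pair of groups overlapped. Without S2A-S7A library 3 or WT29 set 1 library 3 the adjusted p of that fall was 0.075 or 0.06. In the other 6 alleles the log2 fold change lay between -0.21 in Y1F and 0.51 in ALT-P3A, and none passed.

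Within WT18 the earlier libraries were higher than the new ones for all 7 genes. For ssu72 the log2 fold change over WT29 set 2 was 2.01 with the earlier pair alone and 0.81 with the new pair alone. For lsc1 it was 1.69 and 0.56, for lsg1 1.76 and 0.93, for pch1 1.73 and 1.04, for cdk9 1.81 and 1.17, and for fcp1 1.76 and 1.48, in the same order. All of these passed the edgeR test at adjusted p between 0.00017 and 0.019. The fall of lsk1 was 0.66 with the new pair (edgeR adjusted p = 0.00031) and 0.16 with the earlier pair (0.22). The mating type markers also differed between the pairs. The summed level of the P-cell genes map2 and map3 was 28.3 to 29.4 CPM in the new h+ pair and 20.5 to 20.9 CPM in the earlier h- pair, both within the 17.3 to 44.3 CPM of the other 27 libraries. The 5 M-cell genes summed to 43 to 45.5 CPM in the new pair, 59.8 to 73.1 CPM in the earlier pair and 46.8 to 79.6 CPM elsewhere. Of these, the M-factor gene mfm2 was at 9.74 to 12.1 CPM in the new pair and 19.5 to 26.8 CPM in the earlier pair, against 0.353 to 3.17 CPM in the other libraries. The M-cell gene mam1 was also higher in the earlier pair, at 36.7 to 42.9 CPM against 26.8 to 30.1 CPM. The M-factor gene mfm3 went the other way, at 0.51 to 1.14 CPM in the earlier pair and 1.72 to 1.96 CPM in the new pair. For mfm1 and mam2 the pairs overlapped. The part of mating type in the difference between the pairs was not tested.

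S2A-S7A and S2A, which share their controls, were also set against each other directly. Adding the S7A substitution to S2A went with lower levels of 5 of the 7 transcripts: cdk9, pch1, lsk1, lsc1 and ssu72. Over all genes, 16.9% fell and 17.5% rose in this contrast. The level of ssu72 averaged 7.12 CPM in S2A-S7A and 12.7 CPM in S2A, and it fell by 0.81 ± 0.20 on the log2 scale (edgeR adjusted p = 0.014). The falls of the other 4 were 0.53 ± 0.14 for lsc1, 0.51 ± 0.17 for cdk9, 0.45 ± 0.13 for pch1 and 0.37 ± 0.09 for lsk1, at edgeR adjusted p between 0.01 and 0.039. No library of S2A-S7A reached the lowest S2A library for any of these 5. For lsg1 and fcp1 the log2 fold changes of -0.63 ± 0.27 and -0.55 ± 0.26 did not pass, and the groups overlapped. Equally numbered libraries of these alleles deviated together. With the number as a block all 7 were called, lsg1 at an edgeR adjusted p of 0.019 and fcp1 at 0.0071. That fit also held WT29 set 1, whose numbers did not pair with those of either allele. Leaving out 1 library gave between 1 and 7 calls, with the fewest, lsk1 alone, without S2A-S7A library 3. There were 2 calls without S2A-S7A library 1, 3 without S2A library 2 or 3, and 7 without S2A library 1.

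For the ALT alleles no difference among the 7 genes was found. The edgeR test called 0 of 7 in ALT-P3A against ALT-P6A, where 28.8% of all genes changed, and 0 of 7 in ALT-P3A against ALT-S5A, where 21.1% changed. It called 0 of 7 in ALT-P6A against ALT-S5A, where 0.309% of genes changed. In all 3 contrasts 0 of the 7 had an unadjusted p under 0.05, and DESeq2 called 0. The intervals still leave room for differences of some size. Over the 3 contrasts the 95% interval of the log2 difference stayed within -0.23 and 0.15 for lsk1 and within -0.43 and 0.40 for pch1. It reached furthest down for lsg1, within -0.61 and 0.63, and furthest up for ssu72, within -0.39 and 0.70.

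Both control sets carry the same strain label, and they differed in 4 of the 7 genes. Set against WT29 set 1, WT29 set 2 was lower in pch1, lsg1 and fcp1, with log2 fold changes of -0.44 ± 0.12, -0.83 ± 0.26 and -0.88 ± 0.24 (edgeR adjusted p of 0.018, 0.028 and 0.017). It was higher in lsk1, by 0.35 ± 0.09 (edgeR adjusted p = 0.013), and the libraries of the sets did not overlap in these 4 genes. Between these sets 24.5% of all genes rose and 19.5% fell, close to the shares in a substitution allele. Without WT29 set 2 library 6, edgeR called 0 of the 7, with 4 at an unadjusted p under 0.05 and 3 called by DESeq2, and without WT29 set 1 library 2 it called 2, lsg1 and fcp1. A call in an allele therefore has to be read with the set it was made against, and each allele was also fitted against the other set.

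**Figure D3:**
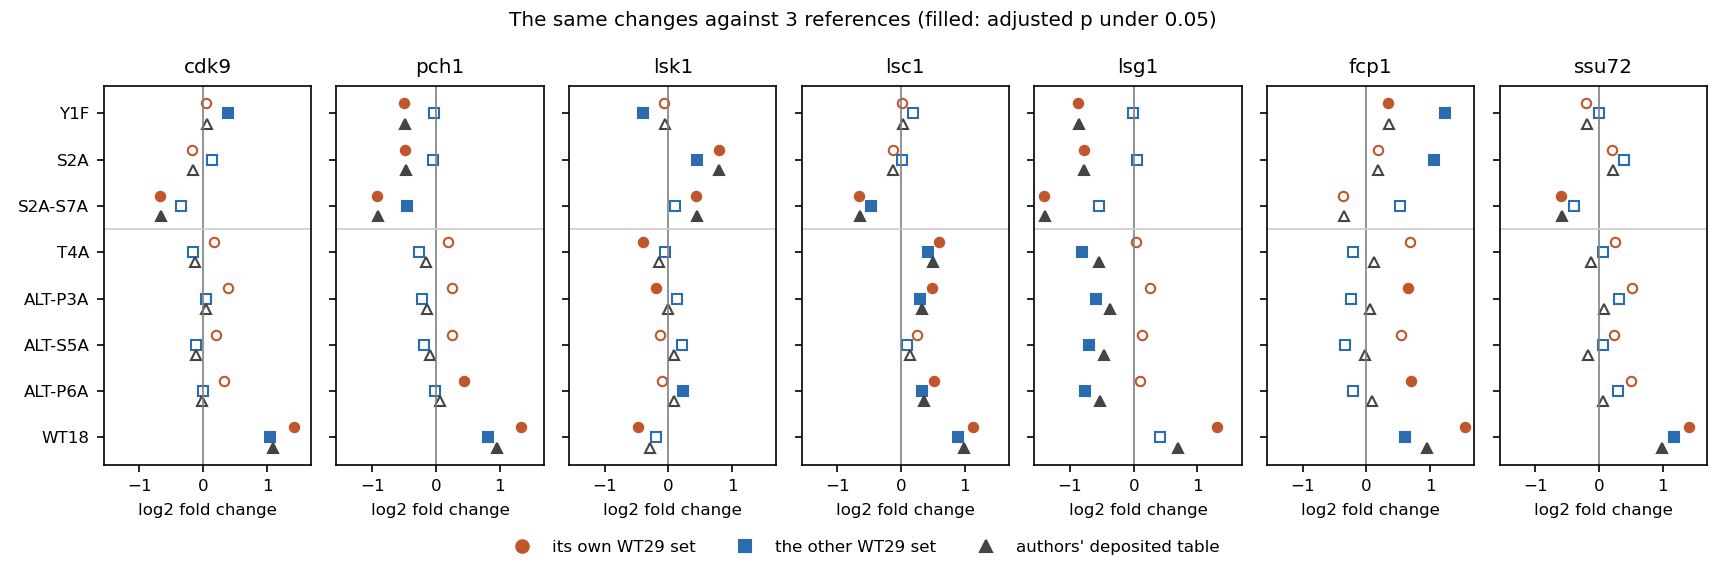
Log2 fold change of each gene in each allele against its own WT29 set (circles), against the other WT29 set (squares) and in the authors' deposited table (triangles), with filled symbols at an adjusted p under 0.05. The 3 symbols lie together for lsc1, where the T4A values are 0.60, 0.43 and 0.50, and apart for lsg1, where the T4A values are 0.04, -0.81 and -0.54.

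Of the 27 calls over the 7 genes and 8 alleles, 12 passed in the same direction with either control set. The matching share over all genes was not worked out, so this count shows nothing particular to the 7 genes. The authors' deposited table also calls 11 of these 12, all but fcp1 in Y1F, whose log2 fold change was 1.24 ± 0.19 against WT29 set 2 (edgeR adjusted p = 0.0002) and is 0.35 in that table (adjusted p = 0.168). Among the substitution alleles the 11 were lsk1 in S2A, pch1 and lsc1 in S2A-S7A, and lsc1 in T4A, ALT-P3A and ALT-P6A. The other 5 were cdk9, pch1, lsc1, fcp1 and ssu72 in WT18. For lsk1 in S2A the rise was 0.80 against WT29 set 1, 0.44 ± 0.08 against WT29 set 2 (edgeR adjusted p = 0.0017), and 0.80 in the authors' deposited table. For lsc1 the log2 fold changes over the other set were 0.43 in T4A, 0.29 in ALT-P3A and 0.33 in ALT-P6A, at edgeR adjusted p of 0.037, 0.032 and 0.02. The authors' deposited table gives 0.50, 0.33 and 0.36 for these. The authors' deposited table rests on the same mutant libraries as the fits here, so it is no separate evidence. For control set 2 alleles its values lay apart from fits on the deposited control columns, as for ssu72 in ALT-P3A, at 0.07 in the authors' deposited table and 0.51 here, and which control libraries it used is not given in the sources used here.

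The call of lsg1 depended on the reference. In the 4 substitution alleles of control set 2, where no call was made, it fell against WT29 set 1, with log2 fold changes of -0.81 for T4A, -0.60 for ALT-P3A, -0.70 for ALT-S5A and -0.76 for ALT-P6A (edgeR adjusted p between 0.0041 and 0.012). In the authors' deposited table its log2 fold changes are -0.54, -0.37, -0.46 and -0.53 in these alleles, all with an adjusted p under 0.05. Conversely, the falls of lsg1 in Y1F and S2A had log2 values of -0.01 and 0.05 against WT29 set 2, and did not pass. Its fall in S2A-S7A had a log2 value of -0.55 ± 0.26 against WT29 set 2 (edgeR adjusted p = 0.1), and its rise in WT18 one of 0.41 ± 0.24 against WT29 set 1 (0.17). The rises of fcp1 in ALT-P3A and ALT-P6A became -0.25 and -0.21 against WT29 set 1 and are 0.05 and 0.09 in the authors' deposited table, none of which passed. The falls of pch1 in Y1F and S2A became -0.03 and -0.04 against WT29 set 2, again without a call. For lsk1, the rise in S2A-S7A was 0.11 ± 0.10 against WT29 set 2 (edgeR adjusted p = 0.36), and the log2 fold change in WT18 was -0.20 ± 0.14 against WT29 set 1 (0.24). Against both sets together these values were 0.24 (0.15) and -0.21 (0.25). For cdk9 and ssu72 in S2A-S7A, the log2 fold changes were -0.34 and -0.39 against WT29 set 2 (edgeR adjusted p of 0.09 and 0.16). With both sets as controls they were -0.54 and -0.51 (0.058 and 0.088).

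The partners of a kinase did not keep a fixed transcript ratio. Ratios were taken within each library from counts per kilobase, so library scaling does not enter, and they were described without a test. The ratio of lsc1 to lsk1 was 0.415 ± 0.038 in S2A and 0.372 ± 0.063 in S2A-S7A, against 0.797 ± 0.15 in WT29 set 1 (SD, n = 3 each). It was 1.64 ± 0.43 in WT18 (SD, n = 4), against 0.557 ± 0.1 in WT29 set 2 (SD, n = 3), without overlap in any of these pairs. The ratio of lsg1 to lsk1 lay at 0.214 ± 0.074 in S2A and 0.179 ± 0.058 in S2A-S7A, against 0.643 ± 0.19 in WT29 set 1. In WT18 it was 0.955 ± 0.15, against 0.282 ± 0.11 in WT29 set 2. The control sets themselves differed in this ratio, and the S2A and S2A-S7A libraries, at 0.114 to 0.283, overlapped the 0.172 to 0.392 of WT29 set 2.

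The P-TEFb ratio moved far less. The group means of pch1 to cdk9 ran from 0.526 ± 0.058 in Y1F to 0.776 ± 0.11 in WT29 set 1 (SD, n = 3 each), and the libraries of these 2 groups did not overlap. In WT18 the ratio was 0.648 ± 0.03, against 0.71 ± 0.11 in WT29 set 2, with overlapping libraries. The balance of both kinases shifted more: lsk1 to cdk9 was 0.56 ± 0.034 in WT18, against 2.18 ± 0.61 in WT29 set 2. It was 2.63 ± 0.52 in S2A and 2.91 ± 0.53 in S2A-S7A, against 1.38 ± 0.41 in WT29 set 1. Both mutants overlapped the 1.67 to 2.85 of WT29 set 2, so the shift in S2A and S2A-S7A depends on the control set used. The WT18 libraries, at 0.514 to 0.586, lay below both control sets, with WT29 set 1 at 0.957 to 1.77.

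**Figure D4:**
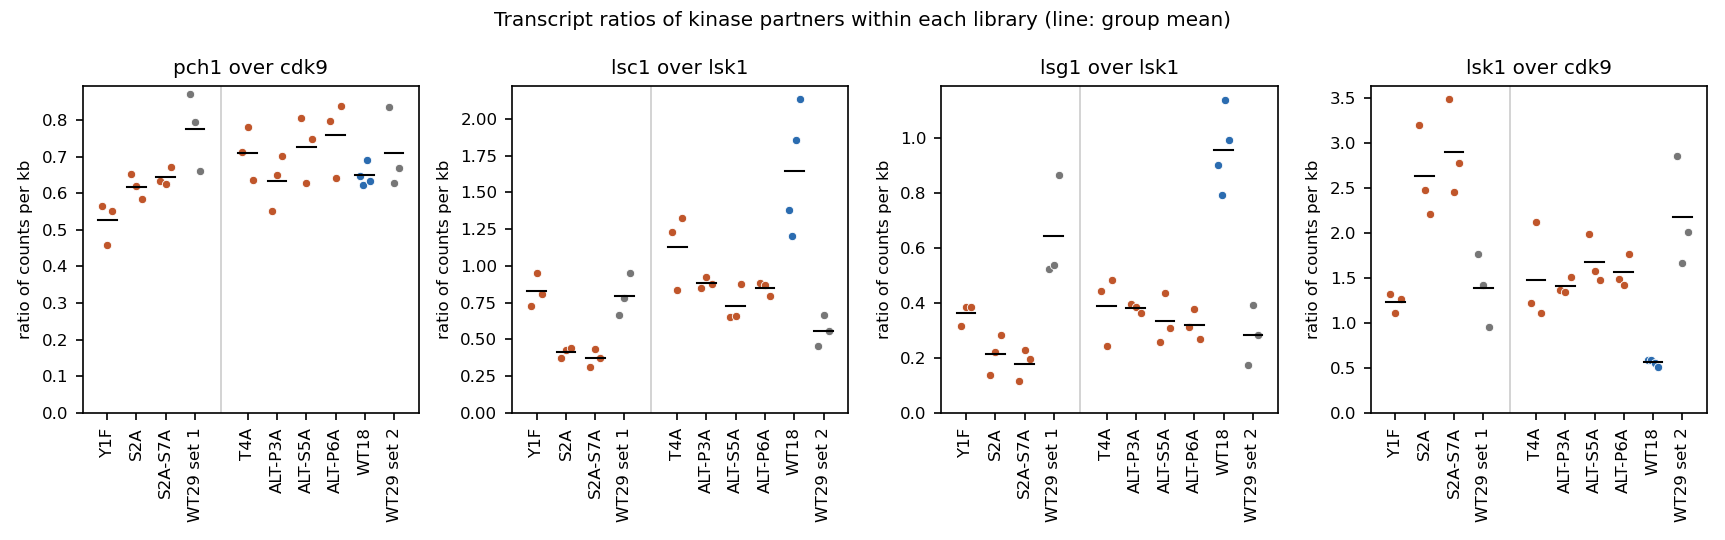
Ratios of transcripts within each library, from counts per kilobase of exon, with 1 point per library, a line at each group mean and an axis from 0. The lsk1 to cdk9 ratio is 0.514 to 0.586 in the 4 WT18 libraries and 1.67 to 2.85 in WT29 set 2, and the lsc1 to lsk1 ratio is at most 0.444 in S2A and at least 0.662 in WT29 set 1.

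In the order of group levels most neighbours overlapped. For cdk9, WT18 at 101 ± 23.7 CPM (SD, n = 4) stood apart from the next group, Y1F at 50.8 ± 4.17 CPM, while every other neighbour in the order overlapped down to S2A-S7A at 29.6 ± 3.95 CPM. For pch1 and ssu72, WT18 was likewise separate at the top and S2A-S7A the lowest group. The mean of lsk1 was highest in S2A, at 132 ± 6.35 CPM, above S2A-S7A at 101 ± 4.22 CPM without overlap, and lowest in WT18. The highest group mean was 1.98 times the lowest for lsk1 and 2.86 to 3.62 times the lowest for the others.

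Across the 10 group means of log2 CPM, lsk1 had a negative Pearson r with each of the other 6 genes, from -0.64 with lsc1 to -0.38 with fcp1. The other 6 had positive values with each other, from 0.53 for lsc1 and fcp1 to 0.93 for cdk9 and pch1. Much of this came with WT18: without it, over 9 groups, cdk9 and pch1 had an r of 0.80, and lsk1 and ssu72 -0.05. Spread within groups had a related form. In 9 of the 10 groups the library with the lowest cdk9 was also the lowest in fcp1, and in 7 of 10 it was the highest in lsk1. Such a library was WT29 set 2 library 4, with 29.7 CPM of cdk9, 19.7 CPM of fcp1 and 101 CPM of lsk1. These points share library preparation and depth, so the values describe these libraries only.

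Among 4129 protein-coding genes, those with the group pattern most like cdk9 were exo1, a DNA exonuclease gene, and sqs1, with r of 0.995 and 0.994 over the 10 groups. Closest to pch1 were rrn11, for a factor of RNA polymerase I, and efg1, at 0.974 and 0.973. Closest to lsk1 were SPAC23A1.07 and psc3, for a cohesin subunit, at 0.929 and 0.915. Closest to lsc1 were SPAC222.18 and kti12, at 0.983 and 0.979, and to lsg1 cyt2, for a cytochrome c haem lyase, and SPBC215.06c, at 0.969 and 0.964. Closest to fcp1 were ssr3, for a chromatin remodelling subunit, and SPCC737.07c, both at 0.958. Closest to ssu72 were mrp4 and mrpl40, for mitochondrial ribosomal proteins, at 0.984 and 0.981. Without WT18 these values lay between 0.911 and 0.986.

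The remaining transcription kinases and their partners moved in both directions in WT18. Of 8 such genes, 3 rose and 2 fell, where 35.8% of all genes rose and 33.8% fell. The CTD Ser5 kinase gene mcs6, the Cdk7 counterpart, averaged 63.9 CPM in WT18, against 180 CPM in WT29 set 2, and fell, with a log2 fold change of -1.45 ± 0.18 (edgeR adjusted p = 0.00037). Its assembly factor pmh1 rose there by 1.63 ± 0.29 (edgeR adjusted p = 0.0015). The other risers, named after their values were seen, were cdk11 at 1.39 ± 0.31 and csk1 at 1.19 ± 0.14 (edgeR adjusted p of 0.0047 and 0.00032), sizes near those of cdk9 and pch1. In S2A-S7A 0 of the 8 rose and 5 fell, pmh1 the most, by 0.87 ± 0.24 (edgeR adjusted p = 0.013), with cdk11 at -0.70 and csk1 at -0.82. Over all genes 29.4% rose and 31.1% fell in S2A-S7A. In S2A 1 rose, mcs2 by 0.52, and 2 fell, most csk1, for a kinase that activates other cyclin-dependent kinases, at -0.74. In Y1F mcs2, the cyclin of Mcs6, rose by 0.36 and 0 fell, and in T4A csk1 rose by 0.78 and 0 fell. In the ALT alleles 0 rose, and 1 fell in ALT-P3A (mcs6, by 0.41), 1 in ALT-S5A (mcs6, by 0.59) and 3 in ALT-P6A (most srb11, the cyclin of the Mediator kinase, by 0.32).

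Of 13 other phosphatase and CTD-reader genes, 5 rose and 3 fell in WT18, 4 rose and 6 fell in S2A-S7A, and 2 rose and 5 fell in Y1F, where pcf11, a termination factor gene, rose most, by 0.26. The largest fall was that of pcm1, the mRNA cap methyltransferase, in 3 alleles. Its log2 fold change was -1.09 ± 0.14 in Y1F, -1.47 ± 0.20 in S2A and -1.85 ± 0.21 in T4A (edgeR adjusted p of 2.5e-05, 0.00029 and 0.00012). In WT18 spt5, a P-TEFb substrate, rose by 1.31 ± 0.12 (edgeR adjusted p = 0.00019), and its partner spt4 fell by 1.02 ± 0.16 (0.00091). In S2A-S7A the phosphatase gene sds21 rose by 0.57 and the termination factor gene rhn1 fell by 1.18. There pcm1, named after its value was seen, fell nearly as much, by 1.16 ± 0.15 (edgeR adjusted p = 0.00038). In S2A 2 rose, seb1 most at 0.44, and 3 fell. In T4A 0 rose and 2 fell. In ALT-P3A 0 rose and 2 fell, swd22 most at -0.32. In ALT-S5A 1 rose, rhn1 by 0.43, and 2 fell, swd22 most at -0.38, and in ALT-P6A 2 rose and 2 fell, with rhn1 at 0.73 and pcf11 at -0.43. Over all genes, 35.8% rose and 33.8% fell in WT18, 29.4% and 31.1% in S2A-S7A, and 23.6% and 27.6% in Y1F. The shares in the other alleles are those given above with the 7 genes. Counts of the 13 genes were not tested against these shares. The 13 genes were not fitted against the other control set either. For pcf11 the means of Y1F and ALT-P6A, 89.1 and 81.6 CPM, lay between the 72 CPM of WT29 set 1 and the 110 CPM of WT29 set 2.

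In the direct contrasts and between the control sets, some genes of these 2 lists also passed. In S2A-S7A against S2A, 0 of the 8 kinase-list genes rose and 2 fell, most pmh1 by 0.76, and of the 13 others 2 rose and 3 fell, most dis2, a phosphatase gene, at 0.34 and set2, a histone methyltransferase gene, at -0.59. In ALT-P3A against ALT-P6A, csk1 rose by 0.42 and mcs6 fell by 0.21, and of the 13 others 1 rose, pcf11 by 0.34, and 4 fell, most rhn1 at -0.495. In ALT-P3A against ALT-S5A, csk1 rose by 0.49, and of the 13 others 0 rose and 2 fell, most ppn1 at -0.40. In WT29 set 2 against WT29 set 1, csk1 alone of the 8 passed, at -0.72, and of the 13 others 3 rose and 3 fell, most pcf11 at 0.62 and spt6, an elongation factor gene, at -0.74.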

How the data were processed

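The deposited table holds whole-number read counts per gene. The authors aligned with HISAT2 2.1.0 to ASM294v2 and used HTSeq 0.10.0 for counting. Both steps are named per the submitters' processing notes. The authors' deposited tables give log2 fold changes and adjusted p-values from DESeq2, per the file headers and those notes. Columns of WT29 set 2 are numbered 4 to 6 and were assigned to its single sample record by elimination. The table has 6987 lines, of which 1 repeats an ID and 269 IDs hold no counts.

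Counts were fitted per comparison in R 4.3.3 with the quasi-likelihood F test of edgeR 4.0.16, after filterByExpr and TMM scaling, on the groups compared, or for direct contrasts with their shared control set. Between 6006 and 6149 genes were tested. Scripts were tested on simulated data. Intervals are 95% from the same fits. Overlaps between genes and exon lengths came from the ASM294v3 annotation, which matched 6833 IDs. No coordinates or sequences are printed, since the builds differ.

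Alternatives were DESeq2 1.42.0, its size factors, no filter on low counts, a 2-fold minimum, all groups in 1 fit, other or both control sets, a replicate block and leaving out each library. Equal replicate numbers were taken as pairs where every pair's deviations correlated over 0.1. This held for S2A-S7A with S2A (0.66, 0.15 and 0.36) and ALT-P6A with ALT-S5A (0.31, 0.40 and 0.17). Named were all 7 genes, of the 2 further lists the largest rise and fall that passed per comparison, and the 2 genes closest to each member. 1 gene of the second list is not reported here. The members and lists were chosen with earlier results of these data known. The labels do not say that libraries came from separate cultures, so p-values measure only the spread between these libraries.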

Additional observations from a re-analysis of the deposited data

Results flagged for a closer look

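The effects of 2 alleles under the same control differed, by the direct contrast of S2A-S7A over S2A, for 5 of the 7 genes. The log2 differences were -0.81 for ssu72, -0.53 for lsc1, -0.51 for cdk9, -0.45 for pch1 and -0.37 for lsk1, each at an adjusted p under 0.05 in edgeR's quasi-likelihood test. For lsk1 both alleles were above WT29 set 1, S2A-S7A at 101 CPM and S2A at 132 CPM. For cdk9, lsc1 and ssu72, only S2A-S7A differed from WT29 set 1 past the threshold.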

How the results depend on the processing

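Most single-gene results kept their side of the threshold. A change of direction was counted only where the result was called in at least 1 of the 2 fits compared. Unchanged in this sense were 88 of 91 with DESeq2 size factors, 86 of 91 with the DESeq2 Wald test and 87 of 91 without the low-count filter. The same held for 50 of 56 with every group that shares a control set fitted together, and 490 of 553 when 1 library was left out. The control set mattered more, with 33 of 56 unchanged in this sense against the other set and 41 of 56 against both. Results that were called with neither set and changed sign are among those unchanged. With both sets as controls the calls were 0 for Y1F, 1 for S2A, 3 for S2A-S7A, 1 in T4A, 0 in ALT-P3A and 1 in ALT-P6A. Against the other set alone they were 2 in S2A-S7A and 1 in ALT-S5A. The shares of all genes called in the fits with the other or both sets were not worked out. Of the 56 results, 22 had the opposite sign with the other set. In 10 of these the result was called with at least 1 of the sets: lsg1 in S2A (0.049), T4A (-0.81), ALT-P3A (-0.60), ALT-S5A (-0.70) and ALT-P6A (-0.76), lsk1 in ALT-P3A (0.13) and ALT-P6A (0.22), fcp1 in ALT-P3A (-0.25) and ALT-P6A (-0.21) and pch1 in ALT-P6A (-0.019). Requiring a 2-fold change left 1 call in S2A-S7A, 0 in Y1F, S2A, T4A, ALT-P3A and ALT-P6A, 0 in WT29 set 2 against WT29 set 1 and 0 in S2A-S7A against S2A, by construction. Fitting all groups together left 1 call in ALT-P3A. ALT-S5A had 1 call with the DESeq2 Wald test and 1 without the filter. Leaving out 1 library gave 1 to 3 calls in S2A (1 without S2A library 2 or WT29 set 1 library 3) and 0 to 3 in T4A (0 without T4A library 1 or WT29 set 2 library 4 or 6, each with 2 of the 7 at an unadjusted p under 0.05 and 1, 1 and 2 called by DESeq2). It gave 0 to 7 in ALT-P3A (0 by edgeR without ALT-P3A library 1 or WT29 set 2 library 6, with 4 and 5 of the 7 at an unadjusted p under 0.05 and 1 and 3 called by DESeq2; 7 without WT29 set 2 library 5), 0 to 1 in ALT-S5A (1 without ALT-S5A library 1 or WT29 set 2 library 5), 0 to 4 between the control sets and 1 to 7 in S2A-S7A against S2A. With the replicate number as a block, the calls numbered 3 for Y1F, 3 for S2A and 6 for S2A-S7A, as without it, although these numbers did not pair with WT29 set 1. The block added lsg1 and fcp1 in S2A-S7A against S2A and changed no other call. The causes of these changes were not tested, apart from those set by construction. Libraries of 15.2 M counts or more gave at least 97 counts per member.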
